A study of Mus musculus with 12 samples.

Results

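Mitosis and kinetochore genes encode the machinery that condenses chromosomes, attaches them to the spindle, separates them and divides the cell. The set described here holds 55 genes, taken from a list of symbols and matched to the gene names of the deposited tables, out of 49585 genes counted. The rule uses no level, but the list was drawn up with earlier results of these data known. The genes were sorted by role into 9 groups: centromere and kinetochore (12 genes), spindle checkpoint (4), cyclins and mitotic kinases (6), chromosomal passenger complex (4), anaphase and cohesion (6), spindle kinesins (5), spindle assembly (4), cytokinesis (9) and chromosome structure (5).

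A dividing cell transcribes these genes late in the cell cycle. The kinetochore is the protein plate on the centromere that holds microtubules, and the spindle checkpoint delays chromosome separation until all plates are attached. Cyclins and mitotic kinases drive entry into mitosis, and the anaphase-promoting complex ends it. In the resting adult spinal cord microglia divide rarely, and they proliferate after injury.

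The libraries come from C57BL/6 mice that were sham-operated, or were killed 3, 7 or 14 days after a spinal cord injury, with 3 libraries in each of the 4 groups. Sham libraries are labelled as day 7. Cord of 3 animals was pooled for each library, cut to 5 mm on either side of the injury, and GFP-bearing nuclei were pulled down from it with an antibody, so the RNA is nuclear. No source used here gives the driver of GFP or the age and sex of the mice.

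Total counts per library lay between 4003480 and 10670804. Levels of single genes are TMM-scaled CPM (counts relative to the library total), where TMM is a scaling that sets most genes equal between libraries, and levels of different genes are compared in RPKM, which also divides by gene length. Changes are log2 fold changes ± SE with adjusted p-values of edgeR's quasi-likelihood test, adjusted by Benjamini-Hochberg over 18451 tested genes, with 0.05 as the threshold. The p-values measure the spread between pooled libraries. Of the 55 members, 54 had enough counts for the test. The exception was Cenpm, a kinetochore component, with 11, 21 and 17 raw counts at 3 days and 1, 2 and 6 in sham libraries. All 10 microglia markers examined were found in every library, with a summed level of 3246 to 5977 CPM. The 8 neuron markers and 8 oligodendrocyte markers were also found in every library. They summed to 1257 to 4134 CPM and 589.4 to 1775 CPM, so the libraries are not purely microglial. Sham replicates 2 and 4 were the least alike pair of any group, with a correlation of log2 CPM across genes of 0.904, against 0.987 for the most alike pair, both of 14 days. Xist was at 0.936 to 4.81 CPM in 7-day replicates 3 and 4 and 14-day replicate 3 and at 3878 CPM or more in the other 9 libraries, so the pools differ in the sex of the animals, but all 3-day and sham pools hold Xist.

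At 3 days after injury nearly every member was higher than in sham libraries. Of the 54 tested members 52 rose and 0 fell, against 10.9% of all tested genes that rose and 9.17% that fell. Their median log2 fold change was 2.74, against -0.03 over all genes tested, and the values ran from -1.62 (Pttg1) to 4.20 (Ccnb1). The summed level of the 55 members was 4609, 4595 and 3973 CPM in the 3-day libraries, against 845.7, 581.4 and 894.5 CPM in the sham libraries. The ratio of the means was 5.68, and the members took up 0.439% of all counts at 3 days, against 0.0774% in sham libraries. In 52 of the 54 tested members all 3-day libraries were above all sham libraries, against 18.7% of all genes, and the same 52 stood above all 9 other libraries, against 6.75% of all genes. In bulk RNA, more dividing nuclei and more RNA per dividing nucleus cannot be told apart.

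**Figure D1:**
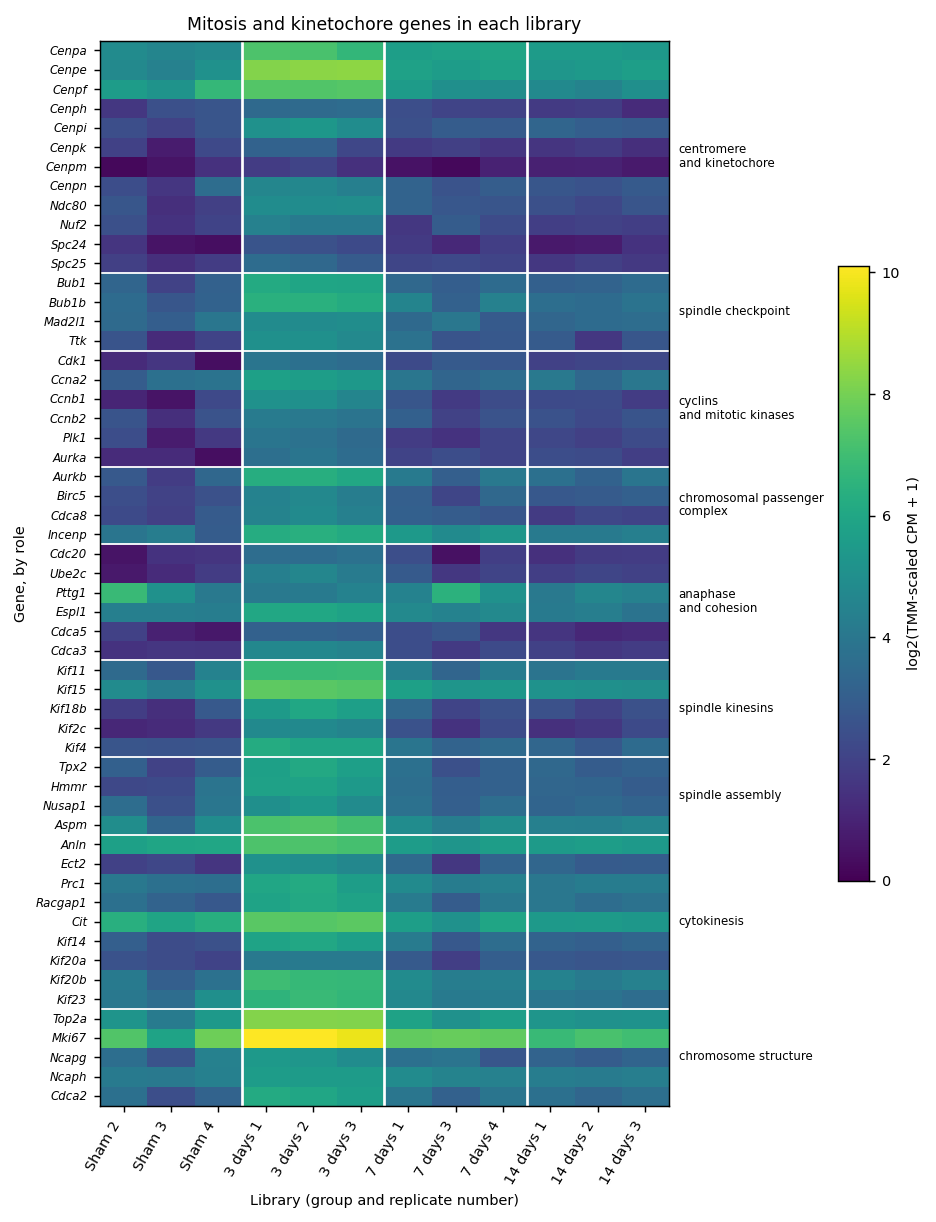
Level of the 55 members in each of the 12 libraries, as log2(TMM-scaled CPM + 1), with genes down the page by role and libraries across. The 3 libraries of 3 days form a bright block, and Pttg1 is brightest in Sham replicate 2 and 7-day replicate 3.

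Kinetochore genes rose in 10 of 11 tested cases, with a median log2 fold change of 2.16. Cenpe, a motor that carries chromosomes to the spindle equator, had 298.2, 323.7 and 335.9 CPM at 3 days, against 26.0, 20.8 and 33.6 CPM in sham libraries. It rose by 3.58 ± 0.20 (edgeR adjusted p = 8.65e-08), and the groups were far apart. In RPKM it was the second highest member at 3 days, at 36.8 ± 1.62, against 2.96 ± 0.458 in sham libraries (SD, n = 3 each). Cenpf, a large protein of the outer kinetochore, had 170.8, 164.7 and 172.6 CPM at 3 days, against 47.2, 35.4 and 105.3 CPM in sham libraries. It rose by 1.44 ± 0.31 (edgeR adjusted p = 0.00525), with Sham replicate 4 well above the other sham libraries. Cenpk, an inner kinetochore subunit, had 7.97, 7.89 and 3.46 CPM at 3 days, against 2.88, 0.686 and 3.64 CPM in sham libraries. The groups overlapped and it did not pass the test (edgeR adjusted p = 0.0701), though DESeq2 and limma called it. The other kinetochore genes rose too, Cenph least and Ndc80 most, by 3.08: Cenpa, Cenpi, Cenpn and Cenph of the centromere, and Ndc80, Nuf2, Spc24 and Spc25, the 4 subunits of the NDC80 complex that grips microtubules.

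The spindle checkpoint genes rose in 4 of 4 cases, with a median of 3.22. Bub1b, the checkpoint protein that restrains the anaphase-promoting complex, had 83.8, 84.8 and 73.2 CPM at 3 days, against 10.6, 5.49 and 8.12 CPM in sham libraries. It rose by 3.30 ± 0.35 (edgeR adjusted p = 2.42e-05). Bub1, its partner kinase at the kinetochore, had 70.8, 61.3 and 59.3 CPM at 3 days, against 8.93, 2.97 and 7.84 CPM in sham libraries, and rose by 3.26 ± 0.33. Neither gene had overlapping groups. Ttk, the kinase that starts checkpoint signalling, rose by 3.18 ± 0.48, and Mad2l1, which binds Cdc20 to hold back anaphase, by 1.45 ± 0.32.

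Cyclins and mitotic kinases rose in 6 of 6 cases. Ccnb1, the cyclin that activates Cdk1 for entry into mitosis, gave the largest change of any member: 33.2, 32.3 and 23.4 CPM at 3 days, against 1.06, 0.457 and 3.64 CPM in sham libraries, a rise of 4.20 ± 0.52 (edgeR adjusted p = 8.45e-05). Its sham level rested on few reads, so the size is less certain than its call. Ccna2, a cyclin of S phase and early mitosis, had 52.6, 48.2 and 40.6 CPM at 3 days, against 6.66, 12.3 and 13.4 CPM in sham libraries, and rose by 2.14 ± 0.30. Aurka, Cdk1, Plk1 and Ccnb2, a second B-type cyclin, rose by 3.51, 3.26, 2.30 and 1.99. The Ccna2 exons overlap those of Exosc9 on the opposite strand, and no source used here says whether counting used strand, so reads of the pair cannot be told apart. The same holds for 11 members in all.

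The chromosomal passenger complex corrects wrong attachments of chromosomes and later guides cytokinesis, and its genes rose in 4 of 4 cases. Aurkb, its kinase, had 77.9, 80.6 and 65.1 CPM at 3 days, against 6.06, 2.52 and 9.52 CPM in sham libraries, a rise of 3.64 ± 0.40 (edgeR adjusted p = 3.33e-05). Incenp, the scaffold that binds the kinase to the centromere, had 76.1, 81.5 and 71.9 CPM at 3 days, against 14.1, 18.3 and 6.72 CPM in sham libraries, a rise of 2.54 ± 0.29. Birc5 (survivin) and Cdca8 (borealin), which place the complex on the centromere, rose by 2.42 ± 0.37 and 2.46 ± 0.34. The summed level of the complex was 195.3 ± 22.0 CPM at 3 days and 26.5 ± 2.01 CPM in sham libraries (SD, n = 3 each).

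Among the anaphase and cohesion genes 5 of 6 rose. Espl1 encodes separase, the protease that opens cohesin to let sister chromatids part. It had 66.7, 63.7 and 56.2 CPM at 3 days, against 19.5, 19.4 and 18.8 CPM in sham libraries, and rose by 1.69 ± 0.20 (edgeR adjusted p = 6.72e-05). The sham libraries hardly differed. Cdc20 and Ube2c, an activator and the ubiquitin-conjugating enzyme of the anaphase-promoting complex, rose by 3.11 ± 0.64 and 3.85 ± 0.49, and Cdca3 and Cdca5 by 3.60 ± 0.33 and 2.28 ± 0.53. Pttg1, which encodes securin, the inhibitor that holds separase until anaphase, was the member that ran the other way. It had 15.9, 16.4 and 21.1 CPM at 3 days, against 113.7, 33.8 and 16.2 CPM in sham libraries, so 1 sham library lay among the 3-day libraries. Its difference did not pass the test (log2 fold change -1.62 ± 0.58, edgeR adjusted p = 0.0596). It was called lower at 3 days without Sham replicate 3, without Sham replicate 4 and with no filter on low counts. Without Sham replicate 2, its highest sham library, it was not called, so those calls rest on that library.

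The spindle kinesins rose in 5 of 5 cases and had the highest median of the groups, 3.61. Kif11, the motor that pushes spindle poles apart, had 111.2, 115.4 and 116.5 CPM at 3 days, against 10.3, 5.94 and 21.3 CPM in sham libraries, and rose by 3.22 ± 0.37 (edgeR adjusted p = 5.77e-05). Kif15, a kinesin that helps keep the poles apart, had 191.8, 183.4 and 168.9 CPM at 3 days, against 28.3, 18.5 and 33.6 CPM in sham libraries, and rose by 2.76 ± 0.22. The 3-day libraries of both were close together and apart from sham. Kif18b, Kif2c (a kinesin that dismantles wrongly attached microtubules) and Kif4 rose by 4.02, 4.01 and 3.61.

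Spindle assembly genes rose in 4 of 4 cases. Tpx2, which activates Aurora A on spindle microtubules, had 53.3, 68.6 and 52.0 CPM at 3 days, against 7.57, 2.97 and 6.72 CPM in sham libraries, and rose by 3.31 ± 0.37 (edgeR adjusted p = 3.93e-05). Aspm, a spindle-pole protein, had 149.9, 165.4 and 136.4 CPM at 3 days, against 29.7, 8.92 and 28.8 CPM in sham libraries, and rose by 2.74 ± 0.34. Sham replicate 3 was the lowest library for both. Hmmr and Nusap1, which bind spindle microtubules, rose by 2.89 ± 0.41 and 1.72 ± 0.35.

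Cytokinesis genes rose in 9 of 9 cases, with a median of 2.44. Cit encodes citron kinase, which acts at the midbody. It had 184.7, 174.6 and 186.1 CPM at 3 days, against 83.0, 58.3 and 79.8 CPM in sham libraries, and rose by 1.30 ± 0.20 (edgeR adjusted p = 0.000587). Anln encodes anillin, a scaffold of the contractile ring. It had 155.6, 157.3 and 137.8 CPM at 3 days, against 52.8, 61.0 and 61.6 CPM in sham libraries, and rose by 1.36 ± 0.17. The other cytokinesis genes are Ect2 and Racgap1, regulators of RhoA at the cleavage site, the midzone bundler Prc1 and the kinesins Kif14, Kif20a, Kif20b and Kif23, and they rose by 2.01 (Kif20a) to 3.40 (Kif14 and Ect2). In sham libraries Anln was at 6.25 ± 0.909 RPKM and Cit at 4.29 ± 0.456 RPKM (SD, n = 3).

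Genes of chromosome structure rose in 5 of 5 cases. Mki67 encodes Ki-67, which coats mitotic chromosomes and is the common marker of proliferating cells. It had 1106, 1086 and 909.6 CPM at 3 days, against 164.2, 58.1 and 235.7 CPM in sham libraries, and rose by 2.76 ± 0.34 (edgeR adjusted p = 8.49e-05). Top2a, the topoisomerase that untangles sister chromatids, had 297.5, 302.8 and 290.0 CPM at 3 days, against 36.9, 17.4 and 43.4 CPM in sham libraries, and rose by 3.19 ± 0.28. Mki67 was the highest member at 3 days, at 102.3 ± 12.4 RPKM, and Top2a the third, at 32.8 ± 1.18 RPKM. The condensin subunits Ncapg and Ncaph rose by 1.56 ± 0.41 and 1.39 ± 0.20, and Cdca2, which brings a phosphatase to chromatin, by 2.85 ± 0.34.

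Some calls at 3 days depended on single libraries. Cenph, Spc24 and Ncapg lost the call in a fit of only the 3-day and sham libraries and when either of 3-day replicates 1 and 2 was left out. Cenph also lost it without 3-day replicate 3 or Sham replicate 2, and Spc24 without 3-day replicate 3, Sham replicate 3 or Sham replicate 4. Sham replicate 3 was the lowest sham library for 35 of 55 members, and the median log2 fold change was 2.34 without it. How many of all genes were lowest in that library was not computed.

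**Figure D2:**
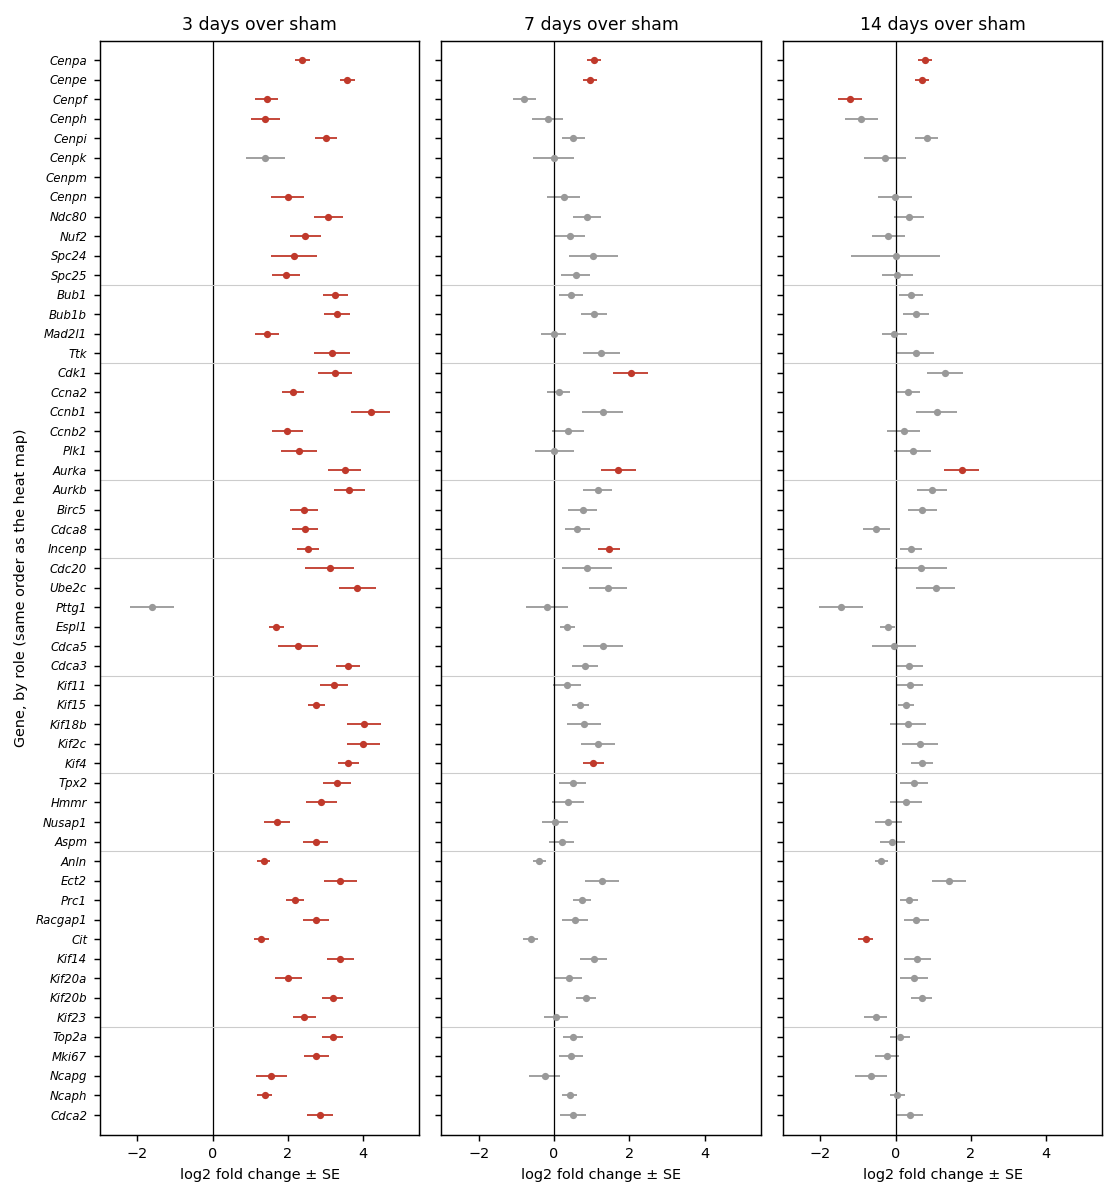
Log2 fold change over sham ± SE of each tested member at 3, 7 and 14 days, with genes down the page by role; red marks an edgeR adjusted p under 0.05. At 3 days 52 of 54 members are red to the right of 0, and at 14 days Cenpf and Cit are red to the left.

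The upstream sequences of members are shown because genes of this kind are known to share promoter elements: a CCAAT box, bound by NF-Y, and a cell cycle genes homology region with the core TTTGAA or TTCGAA, bound by the DREAM and FOXM1-MYB-MuvB complexes. RefSeq windows of GRCm38.p6, from 250 bases before to 50 after a start, were available for 48 members and gave 52 windows. CCAAT, read on either strand, was in 75.0% of member windows and in 37.4% of all 32851 windows. TTTGAA or TTCGAA was in 73.1% of member windows (95% exact interval 59.0 to 84.4%) and in 19.2% of all windows. Both elements stood together in 61.5% of member windows and in 7.52% of all windows. The E2F motif TTCCCGC was in 9.62% of member windows and in 4.60% of all. Within the 250 upstream bases alone, TTTGAA or TTCGAA was in 36.5% of member windows and 17.1% of all windows, and both elements together in 30.8% and 6.02%. A match is a description of letters and not of binding. CCAAT and TTTGAA were both upstream in 14 windows of 13 genes, and the 5 of these genes with the highest mean level are printed below, each as the 150 bases before the start, on the gene's own strand. Capitals mark the CCAAT box and the homology region core, read on either strand.
Mki67, GRCm38.p6 chr7:135716380-135716529, minus strand: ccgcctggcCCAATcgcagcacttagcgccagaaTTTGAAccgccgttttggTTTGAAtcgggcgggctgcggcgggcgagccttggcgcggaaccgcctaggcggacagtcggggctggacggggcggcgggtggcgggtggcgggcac
Top2a, GRCm38.p6 chr11:99024190-99024339, minus strand: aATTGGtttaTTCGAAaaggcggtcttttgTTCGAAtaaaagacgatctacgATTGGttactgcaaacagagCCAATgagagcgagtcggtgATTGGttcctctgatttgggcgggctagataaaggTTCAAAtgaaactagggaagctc
Kif11, GRCm38.p6 chr19:37376232-37376381, plus strand: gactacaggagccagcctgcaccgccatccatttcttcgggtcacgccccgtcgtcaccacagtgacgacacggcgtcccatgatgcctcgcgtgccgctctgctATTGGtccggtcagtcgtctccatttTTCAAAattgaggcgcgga
Espl1, GRCm38.p6 chr15:102296143-102296292, plus strand: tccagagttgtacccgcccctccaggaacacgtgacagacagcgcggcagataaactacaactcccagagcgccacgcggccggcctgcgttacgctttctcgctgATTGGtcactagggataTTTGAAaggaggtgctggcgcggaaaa
Prc1, GRCm38.p6 chr7:80294326-80294475, plus strand: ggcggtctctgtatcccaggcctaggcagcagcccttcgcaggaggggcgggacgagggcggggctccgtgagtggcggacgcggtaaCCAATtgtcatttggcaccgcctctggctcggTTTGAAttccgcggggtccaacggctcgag

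In Kif11, Espl1 and Prc1 a CCAAT box lay 45, 44 and 62 bases before the start, with the TTTGAA core nearer to it, at 19, 27 and 30 bases. In Mki67 the nearest core was 98 bases before the start. Top2a had CCAAT 4 times and the core 3 times in the printed stretch. The windows of Pttg1 and Cit held none of these motifs, nor did those of Nuf2, Nusap1, Ncaph, Mad2l1 and Birc5, which were looked up after the motif counts were seen. Each of these 5 rose at 3 days, as did Cit.

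By 7 days most of the 3-day gain was gone. Set against 3 days, 50 of 54 tested members fell and 0 rose, against 7.52% of all genes that fell and 5.85% that rose, with a median log2 fold change of -2.10. In 53 of 54 members all 7-day libraries were below all 3-day libraries, against 20.2% of all genes. The summed level was 1071, 875.8 and 1059 CPM at 7 days, against 4609, 4595 and 3973 CPM at 3 days. Mki67 had 205.7, 215.4 and 197.5 CPM at 7 days, against 1106, 1086 and 909.6 CPM at 3 days, and its log2 value fell by 2.33 ± 0.33 (edgeR adjusted p = 0.00123). The largest fall was that of Kif18b, a kinesin that limits the length of microtubules, with 9.64, 3.17 and 4.68 CPM at 7 days, against 44.9, 64.6 and 51.7 CPM at 3 days. It fell by 3.22 ± 0.42 (edgeR adjusted p = 0.000667).

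Incenp had one of the smaller falls. It had 41.7, 28.0 and 38.8 CPM at 7 days, against 76.1, 81.5 and 71.9 CPM at 3 days, and fell by 1.08 ± 0.27 (edgeR adjusted p = 0.0177). This call was lost without 3-day replicate 2, without 3-day replicate 3 or without 7-day replicate 3, and by limma on log2(RPKM + 0.1). Spc24 had 2.30, 1.23 and 2.67 CPM at 7 days, against 5.24, 4.70 and 3.84 CPM at 3 days. Cdca5 encodes sororin, which protects cohesion, and had 4.19, 5.46 and 2.14 CPM at 7 days, against 7.74, 8.04 and 7.30 CPM at 3 days. Neither passed the test, although the groups did not overlap. Cenpk had 2.30, 2.82 and 2.01 CPM at 7 days, against 7.97, 7.89 and 3.46 CPM at 3 days, and also did not pass. Pttg1 had 21.2, 90.5 and 34.0 CPM at 7 days, against 15.9, 16.4 and 21.1 CPM at 3 days. Its groups did not overlap and it did not pass (edgeR adjusted p = 0.105), but it was called higher at 7 days with no filter on low counts and in a fit of only the 7-day and 3-day libraries.

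Against sham, 6 of 54 tested members rose at 7 days and 0 fell, beside 4.61% of all genes that rose and 4.67% that fell. The median log2 fold change was 0.54, against 0.01 over all genes, and 46 members had a positive value. Cdk1, the kinase that drives entry into mitosis, had 3.77, 6.34 and 5.75 CPM at 7 days, against 1.36, 2.06 and 0.280 CPM in sham libraries. It rose by 2.04 ± 0.47 (edgeR adjusted p = 0.0157), and its sham libraries held 9, 9 and 1 raw counts. Incenp had 41.7, 28.0 and 38.8 CPM at 7 days, against 14.1, 18.3 and 6.72 CPM in sham libraries, and rose by 1.46 ± 0.28 (edgeR adjusted p = 0.00671). The groups of both genes stood apart.

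Cenpa, the histone H3 variant that marks centromeres, had 49.9, 54.4 and 58.8 CPM at 7 days, against 28.3, 23.3 and 25.8 CPM in sham libraries, and rose by 1.07 ± 0.19 (edgeR adjusted p = 0.00423). Cenpe had 54.0, 47.6 and 53.9 CPM at 7 days, against 26.0, 20.8 and 33.6 CPM in sham libraries, and rose by 0.96 ± 0.19. Aurka, the Aurora A kinase of the spindle poles, had 3.14, 4.23 and 3.21 CPM at 7 days, against 1.36, 1.37 and 0.280 CPM in sham libraries, and rose by 1.71 ± 0.46 (edgeR adjusted p = 0.0322). Kif4, a motor on chromosome arms, had 14.0, 8.28 and 10.2 CPM at 7 days, against 5.30, 5.03 and 5.32 CPM in sham libraries, and rose by 1.04 ± 0.28 (edgeR adjusted p = 0.0317). Kif4 overlaps exons of Pdzd11 on the opposite strand and has an annotated pseudogene, so its reads may be shared. The calls of all 6 were lost in a fit of only the 7-day and sham libraries, those of Aurka and Kif4 also without 7-day replicate 1, 7-day replicate 4 or Sham replicate 4, that of Aurka without 7-day replicate 3 and that of Kif4 without Sham replicate 3 or by limma. DESeq2 called 13 members, beside 14.1% of all genes, and edgeR called 14 without Sham replicate 2, beside 16.3% of all genes. The main fit called 9.28% of all genes in either direction, so the share of all genes rose as well.

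Mki67 and Top2a did not pass the test at 7 days. Mki67 had 205.7, 215.4 and 197.5 CPM at 7 days, against 164.2, 58.1 and 235.7 CPM in sham libraries, and Top2a had 56.1, 33.6 and 49.6 CPM, against 36.9, 17.4 and 43.4 CPM. The groups overlapped for both. Cenpf gave the lowest log2 fold change, -0.79, with 46.1, 31.7 and 30.5 CPM at 7 days, against 47.2, 35.4 and 105.3 CPM in sham libraries. By role group, the chromosomal passenger complex summed to 69.1, 42.8 and 72.3 CPM at 7 days, against 26.5, 28.5 and 24.5 CPM in sham libraries, with no overlap. Incenp was the highest of its 4 genes at 7 days and the only 1 called. Aurkb, Birc5 and Cdca8 overlapped sham and did not pass the test (edgeR adjusted p = 0.0762, 0.211 and 0.263). Cytokinesis genes summed to 216.5, 134.2 and 215.0 CPM at 7 days, against 196.8, 182.8 and 189.8 CPM in sham libraries, on both sides of them. Spindle assembly genes summed to 62.8, 35.2 and 58.6 CPM at 7 days, against 48.8, 21.9 and 57.2 CPM in sham libraries, and overlapped. Differences between role groups were not tested.

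**Figure D3:**
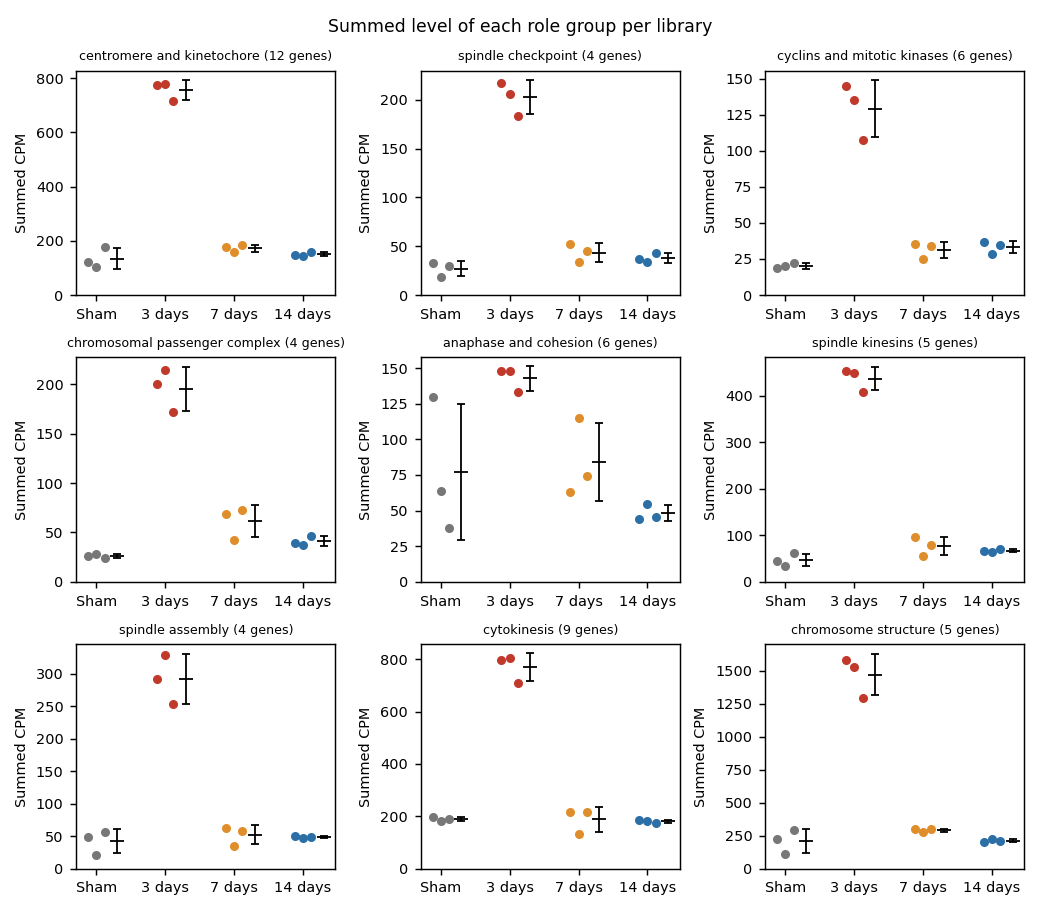
Summed CPM of each role group in the 3 libraries of sham and of 3, 7 and 14 days (points), with mean ± SD (black). Each group peaks at 3 days, and anaphase and cohesion differs because Pttg1 is high in Sham replicate 2 and 7-day replicate 3.

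At 14 days the summed level was 806.5, 820.6 and 834.4 CPM, against 845.7, 581.4 and 894.5 CPM in sham libraries, a ratio of 1.06 that became 0.954 with TMM-scaled values. Against sham, 3 members rose and 2 fell, or 5 of 54 tested, beside 9.82% of all genes called in either direction (5.02% rose and 4.79% fell), so the share of members lay near that of all genes. Aurka had 4.22, 3.97 and 2.67 CPM at 14 days, against 1.36, 1.37 and 0.280 CPM in sham libraries, and rose by 1.76 ± 0.46 (edgeR adjusted p = 0.0264). Cenpa had 45.7, 45.6 and 41.4 CPM at 14 days, against 28.3, 23.3 and 25.8 CPM in sham libraries, and rose by 0.78 ± 0.19 (edgeR adjusted p = 0.0195). Cenpe had 39.2, 41.8 and 50.6 CPM at 14 days, against 26.0, 20.8 and 33.6 CPM in sham libraries, and rose by 0.71 ± 0.19. In each of the 3 all 14-day libraries exceeded all sham libraries.

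Cenpf had 26.5, 22.0 and 31.6 CPM at 14 days, against 47.2, 35.4 and 105.3 CPM in sham libraries, and fell by 1.22 ± 0.32 (edgeR adjusted p = 0.0255). Without Sham replicate 4 its log2 fold change was -0.65 and the call was lost. Cit had 42.4, 44.6 and 39.6 CPM at 14 days, against 83.0, 58.3 and 79.8 CPM in sham libraries, and fell by 0.80 ± 0.21 (edgeR adjusted p = 0.0235). The calls of all 5 were lost in a fit of only the 14-day and sham libraries and without 14-day replicate 1 or replicate 2, and all but that of Aurka without 14-day replicate 3. Those of Cenpe and Cit were lost without Sham replicate 2 and those of Cenpa and Cenpe without Sham replicate 3. limma did not call Cenpf or Cit.

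Against 3 days, 52 of 54 tested members fell at 14 days and 0 rose, beside 5.14% of all genes that fell and 2.17% that rose, with a median log2 fold change of -2.38. The 2 exceptions were Cenpk and Pttg1. Kif18b again fell most, with 4.67, 3.04 and 4.68 CPM at 14 days, against 44.9, 64.6 and 51.7 CPM at 3 days, and fell by 3.68 ± 0.44 (edgeR adjusted p = 0.000205). Between 14 and 7 days 0 members were called, beside 2.19% of all genes. The unadjusted edgeR p was under 0.05 in 5 members, and the share of all genes for that is not given. DESeq2 called 1, Incenp, beside 5.89% of all genes. Incenp had 16.6, 16.8 and 19.6 CPM at 14 days, against 41.7, 28.0 and 38.8 CPM at 7 days. A test of any difference between the 4 groups called 53 of 54 members, beside 26.4% of all genes, and missed Pttg1.

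**Figure D4:**
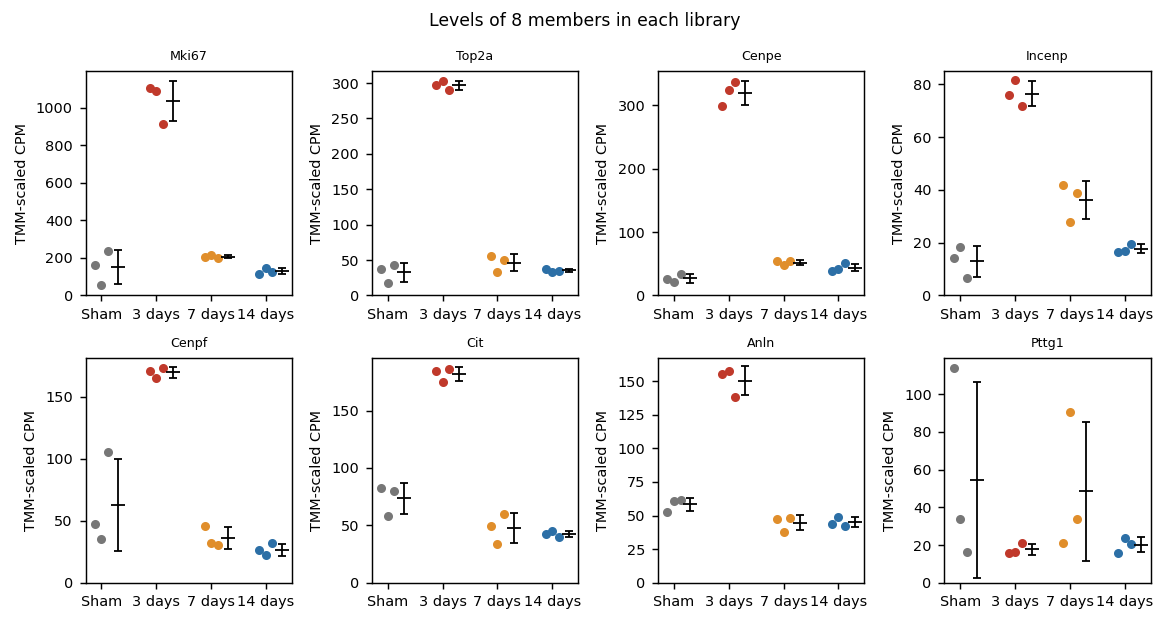
TMM-scaled CPM of 8 members in each library (points, 3 per group), with mean ± SD (black); each panel has its own axis from 0. Mki67, Top2a, Cenpe and Incenp have their 3-day libraries highest, Cenpf, Cit and Anln also have clear sham levels, and Pttg1 is highest in Sham replicate 2 at 113.7 CPM.

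The members moved together from library to library apart from Pttg1. Over the 12 libraries, the median Pearson correlation between a member and the sum of the other members was 0.95, and the next lowest after Pttg1, at -0.41, was 0.77; this is a description, since the groups themselves set it. Pttg1 had 113.7, 33.8 and 16.2 CPM in sham libraries, 15.9, 16.4 and 21.1 at 3 days, 21.2, 90.5 and 34.0 at 7 days and 15.8, 23.8 and 20.7 at 14 days. Sham replicate 2 and 7-day replicate 3 stood out. In sham libraries it averaged 26.2 ± 24.0 RPKM (SD, n = 3), a mean that rests on Sham replicate 2. The median coefficient of variation over members was 44.9% in sham libraries, 12.2% at 3 days, 27.4% at 7 days and 15.4% at 14 days.

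Genes of other cell cycle lists were also tested. Of 69 tested other mitosis genes, 46 rose and 0 fell at 3 days, with a median log2 fold change of 1.64, 6 rose and 1 fell at 7 days, and 3 rose and 0 fell at 14 days. The share that rose was above the 10.9% of all genes at 3 days, and at 14 days it was not above the 5.02% of all genes. At 7 days 4.61% of all genes rose and 4.67% fell. Cdc25c, the phosphatase that activates Cdk1, had 18.9, 18.5 and 13.3 CPM at 3 days, against 0.606, 0.457 and 0.560 CPM in sham libraries, and rose by 4.89 ± 0.42. Zwint, a kinetochore protein, and Bub3, a checkpoint protein, were among the 23 that did not pass at 3 days, with log2 fold changes of -0.38 and -0.18. Of 26 DNA replication genes, 20 rose at 3 days (median 1.62), 4 at 7 days and 0 at 14 days, beside 10.9%, 4.61% and 5.02% of all genes. Uhrf1, which recruits the maintenance DNA methyltransferase to new DNA, had 40.1, 41.3 and 41.6 CPM at 3 days, against 3.33, 5.72 and 2.24 CPM in sham libraries.

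Of 22 regulators of mitotic transcription, 10 rose and 0 fell at 3 days, with a median of 0.45, beside 10.9% of all genes that rose and 9.17% that fell. Foxm1, which activates mitotic genes, had 106.1, 122.3 and 103.3 CPM at 3 days, against 13.6, 16.9 and 24.4 CPM in sham libraries, and rose by 2.61 ± 0.30 (edgeR adjusted p = 5.77e-05). E2f8, a repressor of the E2F family, had 46.2, 54.8 and 53.0 CPM at 3 days, against 6.81, 4.34 and 7.28 CPM in sham libraries. E2f2, an activating member, rose at 3 days by 2.88 ± 0.31, at 7 days by 1.92 ± 0.31, and was also called at 14 days. Rb1, the retinoblastoma repressor, had 222.8, 242.3 and 235.2 CPM at 3 days, against 260.8, 227.5 and 368.4 CPM in sham libraries, and did not pass the test.

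Markers of other cell types also differed between the groups. The 12 monocyte and macrophage markers summed to 166.5 to 311.5 CPM in sham libraries, 1245 to 1770 CPM at 3 days, 298.9 to 700.7 CPM at 7 days and 856.4 to 988.2 CPM at 14 days. Fn1 and Lyz2 gave most of the sum at 3 days but not in sham libraries, where Itga4 and Vcan together were higher. Ly6c2 and S100a4 were at 2.25 CPM or less in every library, but their 3-day libraries were all above sham. Ccr2 had 22.8, 27.4 and 33.9 CPM at 3 days, against 13.2, 9.58 and 8.49 CPM in sham libraries. All 8 tested markers had a positive log2 fold change at 3 days, with a median of 1.53, and 4 rose past the threshold. Of all tested genes 10.9% rose at 3 days and 9.17% fell. The 10 endothelial markers summed to 85.1 to 242.8 CPM in sham libraries, 273.7 to 561.3 CPM at 3 days, 74.0 to 97.2 CPM at 7 days and 370.8 to 373.6 CPM at 14 days, and 9 of 10 rose at 3 days. The 10 fibroblast and pericyte markers summed to 61.7 to 469.8 CPM in sham libraries, 383.7 to 931.0 CPM at 3 days, 61.6 to 155.3 CPM at 7 days and 650.7 to 774.0 CPM at 14 days, and 2 of 10 rose at 3 days. At 14 days these lists were at 4.16, 2.56 and 3.40 times their sham means. Within the 3-day libraries, replicate 3 had the lowest sum of members, of monocyte and macrophage markers and of microglia markers, and the highest of endothelial and of fibroblast and pericyte markers. The 10 microglia markers summed to 3246 to 3978 CPM at 3 days and 4735 to 5977 CPM in sham libraries, and 4 of them fell. Astrocyte markers summed to 1363 to 2253 CPM at 3 days and 556 to 4510 CPM in sham libraries, with Sham replicate 4 the highest. Neuron markers summed to 1838 to 2357 CPM at 3 days and 3047 to 4134 CPM in sham libraries, and 5 of 8 fell. Oligodendrocyte markers summed to 955.1 to 1393 CPM at 3 days and 830.3 to 1775 CPM in sham libraries, and of 8 tested 1 rose and 1 fell. The 10 oligodendrocyte precursor markers summed to 220.4 to 302.9 CPM at 3 days and 145.7 to 247.8 CPM in sham libraries, and 1 rose and 0 fell. Neutrophil and lymphocyte markers reached at most 16.3 and 10.0 CPM. How much each cell type contributed to the 3-day rise was not tested.

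**Figure D5:**
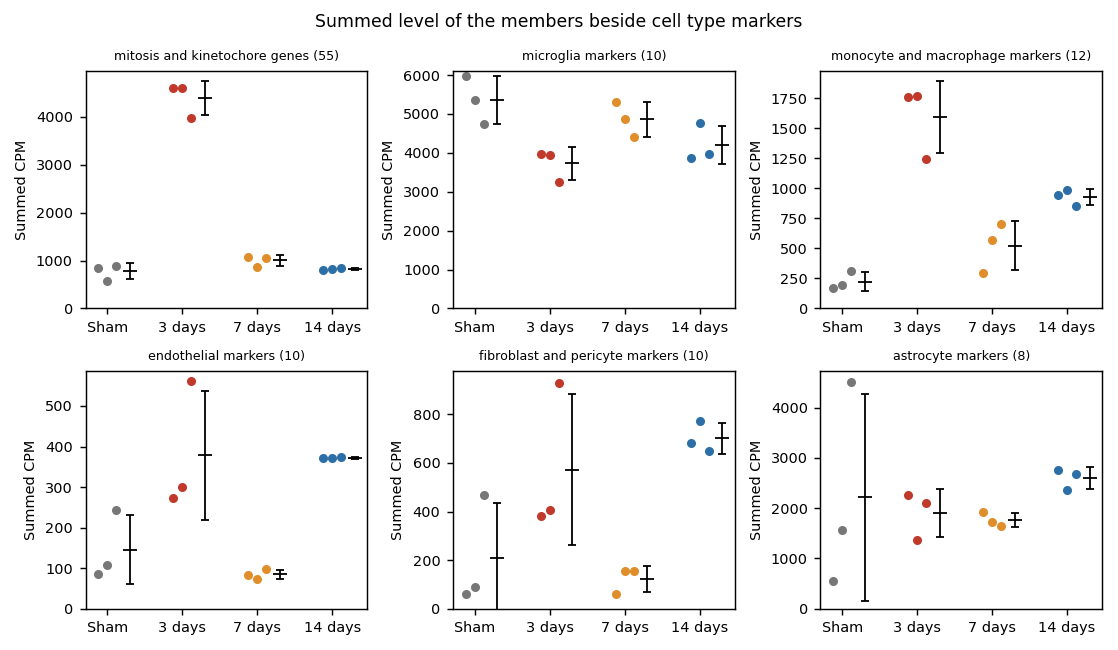
Summed CPM of the 55 members and of 5 marker lists in each library (points), with mean ± SD (black; the lower bar of the sham fibroblast mean is cut at 0). The member sum is highest at 3 days, monocyte markers are high at 3 and 14 days, and the 7-day libraries are low in endothelial and fibroblast markers.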

How the data were processed

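RNA of nuclei pulled down by GFP was sequenced in 12 libraries (3 per group). The authors deposited raw counts per Ensembl gene and RPKM (counts divided by gene length and library total), made with featureCounts 1.4.6-p3 on GRCm38 (mm10) per the submitters' processing notes. Per the labels' protocols cDNA went through single primer isothermal amplification. The sources used here name no aligner, strand setting or rule for multiply mapped reads.

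Counts were tested with edgeR 4.0.16 in R 4.3.3 (TMM, filterByExpr, 1 fit of 4 groups, quasi-likelihood, Benjamini-Hochberg over 18451 genes; biological coefficient of variation 0.271). Standard errors are log2 fold changes over the root of F. Sums are CPM on total counts. In simulated counts of 17859 genes, 3 days against sham, 13% of 100 genes changed 2-fold and 74% of 100 changed 4-fold were recovered. Alternatives were median-ratio scaling, DESeq2 1.42.0, no filter, a stricter filter (1 CPM in 3 libraries, mean 5 CPM), a replicate block, only the 2 groups compared, limma 3.58.1 on log2(RPKM + 1 or + 0.1) and each library left out. Counting intervals cover counting error only. Promoter windows are RefSeq's for GRCm38.p6.

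The members and gene lists were chosen with earlier results of these data known, so the counts are no independent evidence. Named genes are the 2 members of each role group with the highest mean CPM (1 in the 14-day comparisons), the extremes of fold change, members whose call differs from most, and from other lists up to 4 with the smallest adjusted p or the highest level not called.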

Additional observations from a re-analysis of the deposited data

Results flagged for a closer look

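The change against sham differed between time points, by the direct comparison of the times (edgeR, adjusted over all tested genes). Between 7 and 3 days it differed in 50 of 54 tested members, all lower at 7 days, beside 13.4% of all genes. Between 14 and 3 days it differed in 52 members, all lower at 14 days, beside 7.31% of all genes. The sham libraries cancel in this comparison.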

How the results depend on the processing

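No call reversed direction under any alternative. The ratio of the summed level at 14 days over sham ran from 0.943 to 1.15, on both sides of the sham level. Of 990 recomputed values, 914 kept their call or stayed within the spread. The 3-day count against sham ran from 47 (stricter filter, which drops 6 members) to 54, that of 7 against 3 days from 42 to 53 and that of 14 against 3 days from 40 to 53. In the same order, the share of all genes called ran from 9.95% to 24.5%, from 3.01% to 20.2% and from 2.32% to 28.6%. Against sham at 7 days, where 6 members and 9.28% of all genes were called, DESeq2 called 13 (14.1% of all genes) and no filter 15 (8.47%). Only the 2 groups compared gave 0 (1.03%), and leaving out 1 library gave 4 to 14 (4.23% to 16.3%). At 14 days, where 5 members and 9.82% of all genes were called, no filter gave 8 (8.27% of all genes) and the replicate block 2 (8.31%). Only the 2 groups compared gave 0 (5.72%), and limma 3 with either pseudocount (9.53% and 8.82%). Leaving out 1 library gave 0 to 8 (3.58% to 14.3%). Between 14 and 7 days, with 0 members and 2.19% of all genes called, DESeq2 gave 1 (5.89% of all genes) and no filter 3 (4.58%). The replicate block gave 2 (8.71%) and only the 2 groups compared 2 (10.8%). The cause was not tested.

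No pairing by replicate number was seen. The 13 pairs with the same number had correlations of deviations of -0.361 to 0.0697, beside -0.2 to 0.308 for 41 pairs with other numbers. Deviations within a group of 3 libraries depend on each other, so these values cannot show that no pairing exists. With the replicate block 51 members were called at 3 days, Cenph being lost, beside 16.2% of all genes. At 7 days against sham it called 5, Kif4 being lost, beside 8.52% of all genes. The block also left Aurka, Cenpf and Cit uncalled at 14 days against sham. At 7 against 3 days it lost Cdk1, Incenp and Spc25 and called Pttg1 as higher. At 14 against 3 days it lost Spc24. With 250 upstream bases alone the shares with TTTGAA or TTCGAA and with both elements were 36.5% and 30.8%.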

Other observations

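At 3 days, at 7 days and in sham most members were lowest in the same library of the group. Of the 55 members, 41 were lowest among the 3-day libraries in replicate 3, 38 were lowest among the 7-day libraries in replicate 3, and 35 were lowest among the sham libraries in replicate 3. The share of all genes lowest in the same library was not computed, so these counts cannot be called particular to the members. The replicates come from separate pools, and what sets a library low was not tested. E2f2, an activator of cell cycle genes, had 3.18, 5.94 and 3.92 CPM in sham libraries and 29.4, 35.2 and 30.7 CPM at 3 days. It had 13.6, 12.3 and 22.6 CPM at 7 days and 12.2, 13.3 and 14.9 CPM at 14 days, so every library after injury was above all sham libraries. The same held for members such as Cenpa, Cenpe, Aurka, Cdk1, Kif4 and Cdca3. At 14 days all libraries were above sham in 12 of 54 tested members, while the sum of the members overlapped sham. No share over all genes is given for these separations, so they cannot be called particular to the members.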
